A study of Mus musculus with 9 samples.

Results

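Iron storage, uptake and export genes were examined in cultured primary cells from mouse pancreatic tumors. The 10 genes were Ftl1, Fth1, Ncoa4, Hmox1, Slc40a1, Cp, Tfrc, Slc11a2, Slc11a1 and Ireb2, chosen by symbol for their roles in iron handling, with earlier results of these data known. All 10 were found among the 18049 genes of the table, each in a single row. RNA had been sequenced from 9 clones of MPC, murine primary cells grown out of tumors of WTg mice. These mice combine EL1-Luc/EL1-Tag, in which the elastase I promoter of acinar cells directs luciferase and the large T antigen of SV40, with a CAG-Mettl3 transgene, whose promoter is active in most cell types. Minced tumor was plated, attached cells were passaged, and colonies were picked with cloning cylinders, so each library is from a single colony-derived line. All 9 clones share the genotype and the medium with 10% serum. A protocol field of the labels names the PLK1 inhibitor NMS-P937, but the treatment is labelled none. Ages are not given in the labels. The mice behind the clones and the colonies' separate origins are not stated clone by clone, so p-values measure only the spread between these samples, which may be technical.

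Ferritin, a hollow shell built from Fth1 heavy and Ftl1 light subunits, stores iron that would otherwise be reactive, and Ncoa4 delivers it to lysosomes when iron is needed. Cells take up iron through the transferrin receptor Tfrc and the metal transporter Slc11a2, recover it from heme through the heme oxygenase Hmox1, and release it through ferroportin, Slc40a1, the only known exporter of iron from mammalian cells. When iron is short, the regulatory proteins encoded by Ireb2 and Aco1 bind elements in these mRNAs, which stabilizes that of Tfrc and blocks translation of the ferritins. Macrophages that digest red cells are known for high Hmox1, ferritin and ferroportin.

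Normalized counts, the scaled read counts of a gene in a library, are the unit of every level given here, and levels are means ± SD over clones. Between 12198036 and 20453905 reads per library were recovered, and 1 read was worth 1.26 to 2.19 normalized counts. The column names divide the clones into 4 of a set Whe10, 4 of a set Whe3 and 1 named MET, and what the names stand for is not stated. Xist was at 29664 to 32912 in the Whe10 clones, and Ddx3y, a Y-linked gene, was at 0 there and at 2376 to 2720 in all others, so the set and the sex of the mice cannot be told apart. The MET clone had the fewest reads and a Mettl3 level of 2184, against 468 to 621 in the other 8. Of 14 fibroblast markers, 13 were above the floor of 3 reads in every clone, and 16 of 16 macrophage markers were above it too. The authors describe the MPC as fibroblasts by morphology and experience, and so low a floor cannot tell whether this holds. The macrophage list summed to 571324 in Whe3_12A at the lowest and 898337 in Whe3_7A at the highest. In the Whe10 clones it summed to 727667 to 837224, and the fibroblast list to 369380 to 591983. The fibroblast list summed to 513106 to 1011080 in the Whe3 clones. In the MET clone it summed to 876618, against 694122 for the macrophage list. Of the epithelial markers, Epcam and Krt8 were at or under the floor in all 9 clones. In bulk samples such as these, fewer cells of a type and less RNA per cell cannot be told apart.

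Both ferritin subunits were abundant in every clone, with a spread between clones near that of the median gene. Ftl1 was at 244163 ± 33417 normalized counts (SD, n = 9) and Fth1 at 196697 ± 32384. The SD of their log2 values was 0.216 and 0.243, against a median of 0.251 over 14705 genes averaging 10 normalized counts or more. These were the 43.6th and 48.7th percentiles. Together the 2 subunits made up 1.71% ± 0.250 of all counts. This share was 1.27% in Whe3_12A, 1.32% in the MET clone and 1.67% to 1.97% in the other 7.

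Ftl1 (chr7:45457944-45459886, RefSeq GRCm38.p6) was at 256230, 240750, 267518 and 278261 normalized counts in Whe10_10A, Whe10_11A, Whe10_7A and Whe10_8A. In Whe3_11A, Whe3_12A, Whe3_5A and Whe3_7A it was at 256710, 177920, 260005 and 260636, and in the MET clone at 199437. Whe3_12A and the MET clone lay below all others, and without both the coefficient of variation (CV, the SD as a percent of the mean) of Ftl1 was 4.40% in place of 13.7%. A pseudogene, Ftl1-ps1, was listed at 3.76% to 4.43% of the Ftl1 value in every clone, so reads may be divided between the gene and its copy. Other ferritin copies searched for by symbol, such as Ftl2-ps, Ftl1-ps2, Fth-ps2 and Fth-ps3, were not among the genes listed.

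Fth1 (chr19:9980600-9985111) ran from 148991 in Whe3_12A over a median of 197114 to 254090 in Whe3_7A. The MET clone, at 151995, was next to the lowest, as for Ftl1. The highest clone was a different one for the light chain, Whe10_8A. The ratio of Ftl1 to Fth1 counts, which depends on the lengths of both mRNAs and is read here only for its spread, was 1.25 ± 0.118 (SD, n = 9). It was lowest at 1.03 in Whe3_7A and highest at 1.41 in Whe10_8A, with a CV of 9.40%, against 13.7% for Ftl1 and 16.5% for Fth1. Without Whe3_12A and the MET clone the ratio's CV was 10.5%, above the 4.40% of Ftl1 and level with the 10.5% of Fth1.

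Ncoa4 (chr14:32159879-32179855), the receptor that carries ferritin to the lysosome, was at 3951 ± 721 normalized counts (SD, n = 9). Its lowest value was 2743 in Whe3_12A, its median 3792 and its highest 4947 in Whe10_10A. Whe10_7A, at 4941, was level with the highest clone. A pseudogene, Ncoa4-ps, is listed with a mean of 121, so a small part of the reads may be shared.

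Hmox1 (chr8:75093618-75100593), which opens the heme ring and frees its iron, was at 27327 ± 7045 normalized counts (SD, n = 9). In Whe3_11A it reached 41976, above the next clone, Whe3_7A, at 31188. Its lowest values were in Whe3_12A at 19652, Whe3_5A at 20254 and the MET clone at 21201. The Whe10 clones were closer together, at 24072 to 29284.

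**Figure D1:**
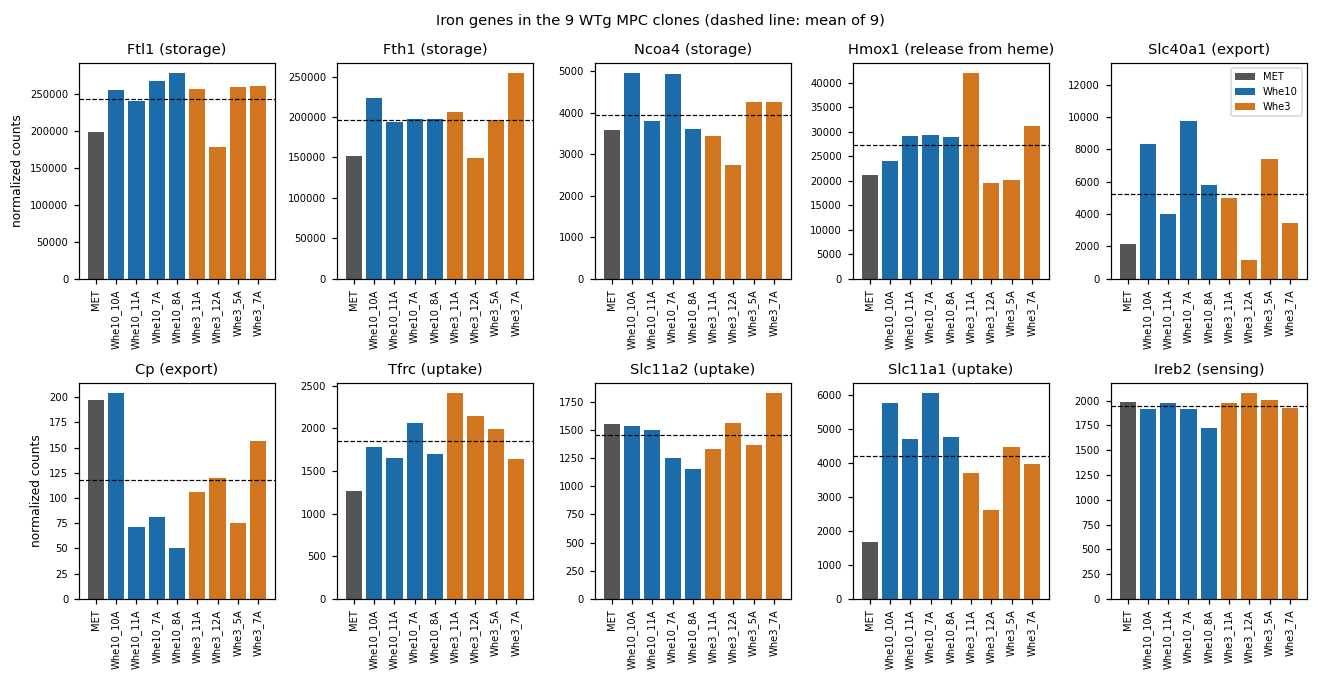
Normalized counts (y axis, from 0, a scale of its own for each gene) of the 10 iron genes in each of the 9 clones (bars, coloured by column-name set), with the mean of the 9 as a dashed line. Slc40a1 ran from 1141 in Whe3_12A to 9772 in Whe10_7A, whereas Ireb2 stayed between 1725 and 2073.

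Over all 9 clones the exporter had the largest CV of the 10 genes. Slc40a1 (chr1:45908070-45926532) was at 8355, 4017, 9772 and 5789 normalized counts in Whe10_10A, Whe10_11A, Whe10_7A and Whe10_8A. In Whe3_11A, Whe3_12A, Whe3_5A and Whe3_7A it was at 5007, 1141, 7399 and 3454, and in the MET clone at 2162. The highest clone exceeded the lowest 8.56-fold, and the values of the Whe10 and Whe3 sets overlapped. The SD of its log2 values was 0.99, at the 91.4th percentile among the 14705 genes that averaged 10 normalized counts or more, whose median SD was 0.25. Without Whe3_12A and the MET clone the CV was 37.3% in place of 55.0%. Without Whe3_12A alone it was 45.3%, below the 50.9% of Cp, so the order of these genes rests on that clone.

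Cp (chr3:19956933-20009750), ceruloplasmin, oxidizes iron as it leaves the cell. It had few reads, 40 to 160 per library, and was at 118 ± 56.0 normalized counts (SD, n = 9). The lowest value was 50.5 in Whe10_8A, the median 106, and the highest 203.6 in Whe10_10A, with the MET clone at 197. Counting error alone gives a CV of 15.8% at 40 reads, against a CV of 47.5% between clones. Both extremes were Whe10 clones. The gene overlaps Hps3 in the annotation, and the strand setting of the counting is not given in the sources used here, so reads of the pair may be mixed.

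Tfrc (chr16:32608896-32632794), the receptor for iron-loaded transferrin, was at 1848 ± 339 normalized counts (SD, n = 9). It was lowest at 1260 in the MET clone, had a median of 1785, and was highest at 2407 in Whe3_11A, the clone that was also highest for Hmox1. In Whe3_12A, where the exporter was lowest, Tfrc was at 2138, next to the highest. The ratio of Tfrc to Slc40a1 counts was therefore 1.87 in Whe3_12A and 0.211 to 0.583 in the other 8 clones.

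Slc11a2 (chr15:100387898-100424209), which carries ferrous iron across the endosomal and plasma membranes, was at 1454 ± 202 normalized counts (SD, n = 9). Its values ran from 1155 in Whe10_8A over a median of 1502 to 1825 in Whe3_7A. Whe3_12A and the MET clone, at 1567 and 1558, were among the higher clones for this gene. It overlaps Gm5475, a long noncoding RNA, in the annotation, with the same limit as for Cp.

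Slc11a1 (chr1:74375014-74386057) encodes the related transporter of the phagosome membrane, expressed mainly in macrophages and other myeloid cells. It was at 5763, 4689, 6032 and 4748 normalized counts in Whe10_10A, Whe10_11A, Whe10_7A and Whe10_8A. In Whe3_11A, Whe3_12A, Whe3_5A and Whe3_7A it was at 3706, 2607, 4463 and 3964, and in the MET clone at 1681. All 4 Whe10 clones were above all 4 Whe3 clones, and the MET clone was below both sets. The mean was 4184 ± 1396 (SD, n = 9), with a 3.59-fold span.

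Ireb2 (chr9:54862658-54912534), which encodes an iron regulatory protein, had the steadiest mRNA level of the 10. It was at 1945 ± 97.0 normalized counts (SD, n = 9), from 1725 in Whe10_8A over a median of 1977 to 2073 in Whe3_12A. The SD of its log2 values, 0.074, was at the 3.26th percentile among the 14705 genes, which include genes with fewer counts. Its ratio to Aco1, the other regulatory protein, was 1.23 ± 0.0882, and Aco1 itself was at 1590 ± 114.

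**Figure D2:**
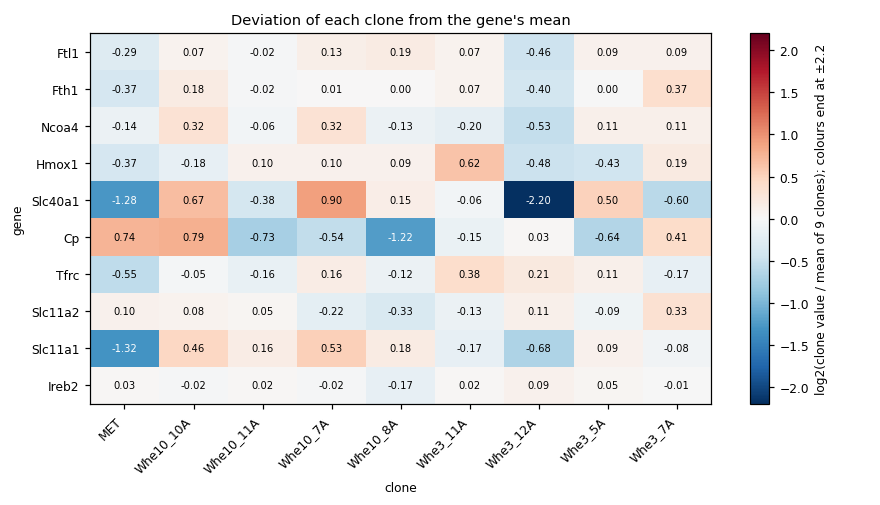
Each cell gives the log2 of a clone's value over the mean of the 9 clones for that gene (rows, genes; columns, clones; red above and blue below the mean). Whe3_12A and the MET clone were below the mean for Ftl1, Fth1, Ncoa4, Hmox1, Slc40a1 and Slc11a1. Cp was above its mean in the MET clone.

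Whe3_12A held the lowest value of 5 of the 10 genes, namely Ftl1, Fth1, Ncoa4, Hmox1 and Slc40a1, and the highest of Ireb2. Of these 14705 genes, 17.6% were lowest in that clone. The same clone had the lowest macrophage list sum, 571324, but Whe3_5A and Whe3_11A were close to it, at 585546 and 594686. Whe3_12A also had the highest fibroblast list sum, 1011080, and the highest sum of the 7 proliferation markers, 19599. The part of these in its iron gene values was not tested. The MET clone was lowest for Tfrc and Slc11a1, and 20.9% of all genes were lowest there.

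The 4 Whe10 and the 4 Whe3 clones were compared to see how the iron genes vary between sets, which are not conditions of the study. None of the 10 genes passed an adjusted p of 0.05 in limma, where 29 of 16985 genes did (0.171%). At an unadjusted p under 0.05 there were 3141 genes, 1 of the 10 among them, and limma's voom on the recovered reads called 22 genes. Slc11a1 was 1.46-fold higher in Whe10, a log2 difference of 0.54 (SE 0.17, 95% interval 0.17 to 0.92, unadjusted p = 0.00989 and adjusted p = 0.177 in limma). It was the only one of the 10 whose sets did not overlap, which 9.47% of all genes tested also did. The macrophage list summed to 727667 to 837224 in Whe10 and 571324 to 898337 in Whe3, with all 16 markers above the floor in every clone. Its part in the Slc11a1 difference was not tested.

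Slc40a1 had the largest estimated difference of the 10, 0.92 on the log2 scale, but its interval of -0.30 to 2.15 included 0 (SE 0.54, adjusted p = 0.383 in limma). Without Whe3_12A the estimate was 0.39, and without Whe3_5A it was 1.29 with an unadjusted interval of 0.10 to 2.48. For the ferritins the intervals were -0.37 to 0.66 for Ftl1 and -0.47 to 0.54 for Fth1, so a difference of either sign remained possible. The interval of Ireb2, -0.23 to 0.05, was the narrowest. Ncoa4, Hmox1, Cp, Tfrc and Slc11a2 had estimates of 0.24, 0.05, -0.33, -0.18 and -0.16, with adjusted p-values of 0.450 to 0.924. Single clones moved several estimates. Cp was at -0.73 without Whe10_10A and -0.07 without Whe10_8A, and Ncoa4 at 0.11 without Whe3_12A. Without Whe3_7A, Tfrc was at -0.28 and Slc11a2 at -0.07, and without Whe3_12A Ftl1 was at 0.0067 in place of 0.14.

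**Figure D3:**
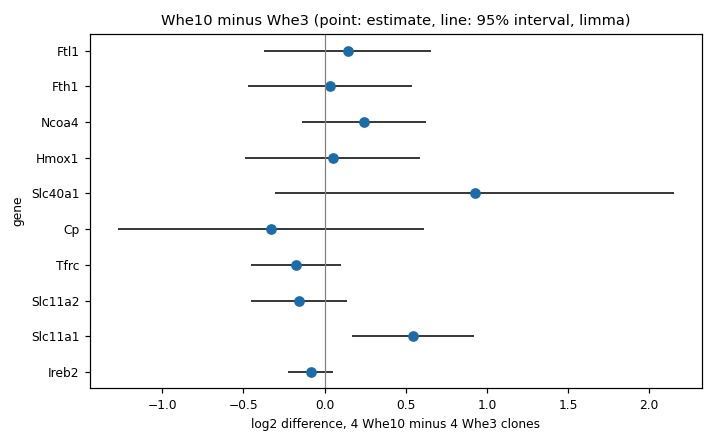
Log2 difference between 4 Whe10 and 4 Whe3 clones for the 10 genes (points, limma estimates; lines, 95% intervals; grey line, no difference). The unadjusted interval of Slc11a1, 0.17 to 0.92, is the only one that leaves out 0, and its adjusted p was 0.177.

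Other genes of iron and heme handling were followed in a list of 59, of which 53 were in the table and 48 averaged 10 normalized counts or more. None of the 52 tested was called between Whe10 and Whe3 in either direction, and their median log2 difference was 0.12 against 0.02 over all genes tested. The median CV of the 48 was 15.3%, against 17.1% over all 14705 genes. Of the 48, 12 were lowest in Whe3_12A, where 17.6% of all genes were lowest, and 14 were highest in Whe10_7A, where 17.9% of all genes were highest.

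In the transferrin group of 11 genes, transferrin itself, Trf, had the most counts, 7766 ± 2985 (SD, n = 9), from 4216 in Whe3_12A to 12515 in Whe10_10A. Steap4, a ferrireductase, was above the floor in 1 clone. Lcn2, the siderophore-binding lipocalin, was at or under the floor in all 9 clones. Of the 8 genes of the export and hepcidin group, Hfe, a partner of transferrin receptors, was at 1768 ± 408, also with its lowest value in Whe3_12A. Hephl1, a copper oxidase related to Cp, was above the floor in 3 clones.

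Of the heme handling genes, Lrp1, a receptor that takes up heme bound to hemopexin among many other ligands, had the most counts, at 105592 ± 13987 normalized counts (SD, n = 9). Hpx, hemopexin itself, had the fewest counts of the group, 12.2 ± 5.26. Slc48a1, which moves heme out of lysosomes, and Blvrb, a biliverdin reductase, were at 9810 ± 1818 and 3038 ± 787. Both were lowest in Whe3_12A, as were Hmox2, Blvra and Slc46a1, which made 5 of the 12 genes of this group, beside 17.6% of all genes. These 5 were named after their values were seen. Cd163, the hemoglobin scavenger receptor of macrophages, was at 18.1 ± 10.7 and above the floor in 8 clones.

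Of the 10 sensors and chaperones, 7 had a CV under 10%, which 24.7% of all genes had, among which are genes with fewer counts. Pcbp2, a chaperone that hands iron to ferritin, was at 7352 ± 556 normalized counts (SD, n = 9). Fbxl5, which marks the Ireb2 protein for degradation when iron is plentiful, was at 1070 ± 74.7. Spic, a transcription factor of red pulp macrophages, was at 18.0 ± 12.9 with a CV of 71.9%. It was above the floor in 8 clones and had few reads, so counting error is part of this spread. Epas1, the hypoxia factor HIF2-alpha, spread from 1118 in the MET clone to 7757 in Whe3_5A, a CV of 51.7%. Fbxl5, Epas1 and Cd163 were singled out after their values were seen.

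Of the 16 mitochondrial genes of heme and iron-sulfur synthesis listed, 6 had a CV under 10%, which 24.7% of all genes had. Their median CV was 12.7%, against 17.1% over all 14705 genes, among which are genes with fewer counts. Iscu, the scaffold for iron-sulfur clusters, had the most counts at 2321 ± 351 (SD, n = 9).

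**Figure D4:**
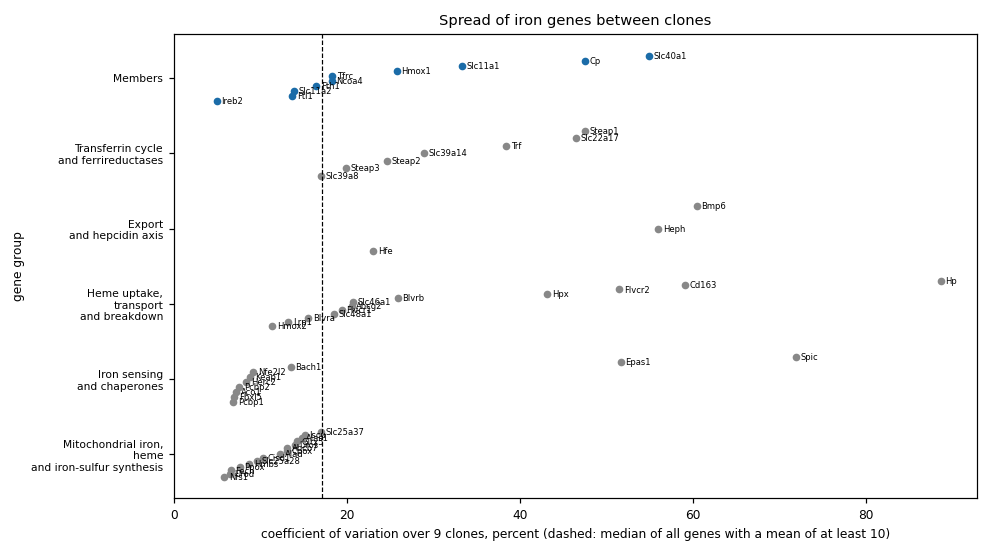
CV over the 9 clones in percent (x axis, from 0) for the 10 iron genes (blue) and 47 other iron and heme genes (grey, by group; genes spaced vertically for legibility). The 10 genes ran from 4.98% for Ireb2 to 55.0% for Slc40a1, and the dashed line is the median of 14705 genes, 17.1%.

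Relations between the genes were tested over the clones for 9 fixed pairs, on the log2(normalized counts + 1) scale, by exact two-sided permutation with Benjamini-Hochberg adjustment over the 9. Ftl1 and Fth1 had Pearson's r = 0.820 (exact permutation p = 0.0134, adjusted 0.0729) and Spearman's rho = 0.600 (p = 0.0968, adjusted 0.290). Leaving out the 2 clones that were farthest from the Ftl1 median, Whe3_12A and the MET clone, gave r of -0.0087. The relation rests on those clones. Of 12300 genes, 3.33% had a higher r with Ftl1 than Fth1 had.

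Slc11a1 rose with the macrophage score, the mean z-score of the 16 macrophage markers over the clones, in rank order. Spearman's rho was 0.867 (exact permutation p = 0.00451, adjusted 0.0406), and Pearson's r was 0.723 (p = 0.0243, adjusted 0.0729). The MET clone lay apart, with the lowest Slc11a1 at a score of -0.44. Without it r was 0.937 (exact permutation, adjusted p = 0.00513) and rho 0.881 (adjusted p = 0.0652). When the 2 clones with Slc11a1 farthest from its median were left out, r was 0.871 (exact permutation p = 0.0121, adjusted 0.109). Centred within the Whe10 and Whe3 sets, r was 0.849 (exact permutation within sets, p = 0.0191, adjusted 0.172). Of 12301 genes, 14.6% had a higher r with the score. The score and the macrophage list sum given above are different measures and order the clones differently. The score was highest in Whe10_7A, at 1.03, and was 0.23 in Whe3_7A, the clone with the highest sum.

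Slc40a1 had r = 0.736 with the macrophage score (exact permutation p = 0.0229, adjusted 0.0729) and rho = 0.683 (p = 0.0503, adjusted 0.226). Neither passed the adjusted threshold. With the 2 clones most distant from its median left out, r was 0.396 (exact permutation p = 0.375), and centred within sets it was 0.638 (p = 0.155). A higher r with the score was held by 13.6% of genes.

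For the other 6 pairs the exact permutation test gave adjusted p-values of 0.264 or more for r and 0.400 or more for rho. Hmox1 had r = 0.582 with Ftl1, 0.350 with Slc40a1 and 0.168 with the macrophage score, and the rho values were 0.500, 0.233 and 0.350. Tfrc had r = 0.218 with Slc40a1 and 0.118 with the proliferation score (rho 0.283 and 0.183). Cp had r = -0.070 with the macrophage score (rho -0.067). With the 2 clones most distant from the first gene's median left out, these 6 values of r were 0.499, 0.064, 0.517, -0.153, 0.514 and -0.407, in the same order. Centred within sets they were 0.517, 0.248, 0.052, 0.186, 0.314 and 0.367.

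**Figure D5:**
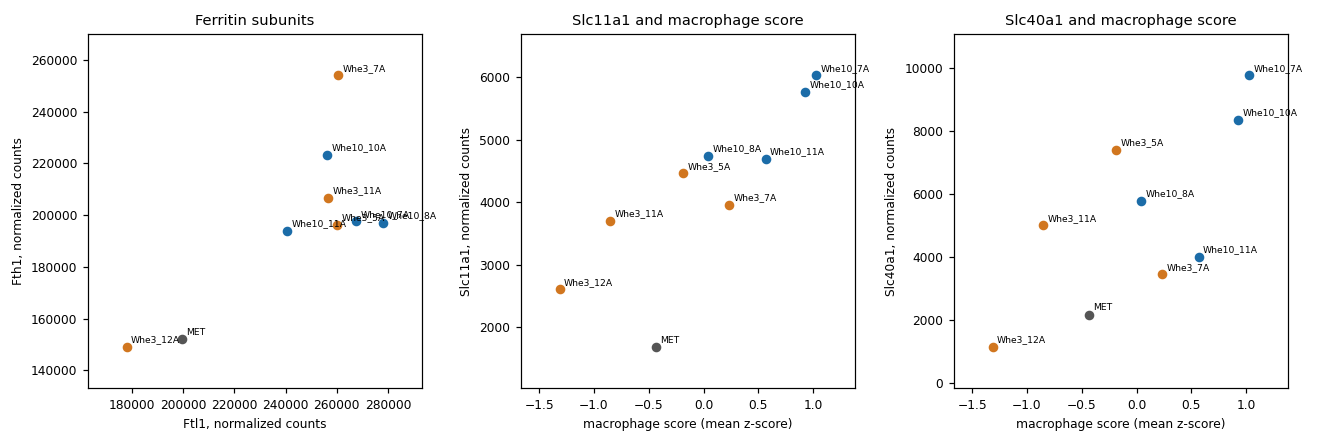
Ftl1 against Fth1 (left, normalized counts on both axes), and Slc11a1 (middle) and Slc40a1 (right) in normalized counts against the macrophage score; each point is 1 of 9 clones, coloured by set (blue Whe10, orange Whe3, grey MET). In the left panel Whe3_12A and the MET clone lie apart from the other 7, and in the middle panel the MET clone lies below the rest.

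The genes whose pattern over the 9 clones was most like each iron gene were picked among 12300 genes averaging 50 normalized counts or more, by Pearson's r of log2 values, as a description. Ftl1-ps1, the copy that may share its reads, headed the list of Ftl1 at r = 0.976, followed by Copg2 and Prdm10. For Slc40a1 the leading genes were Supt4a (r = 0.985), Cab39 and Pet100. Supt4a, like Slc40a1, was lowest in Whe3_12A and the MET clone, at 507 and 567 normalized counts. The r values of these lists without those clones were not computed. Being picked as the highest of 12300, they are large by selection. Slc11a1 was most like Rab14 (r = 0.991), Csf3r, a receptor of myeloid cells, and Crlf2. Fth1 was followed by Jmjd8, Pcgf1 and Slc31a2, and Ncoa4 by Cdip1, Samhd1 and Dctn5, with leading r of 0.975 in both. Hmox1 had Dohh, Cox6a1 and Ifi47 (leading r = 0.914). Tfrc had 2410004B18Rik, Ube2j2 and Coq4 (0.953), and Slc11a2 had Mcoln2, Gosr1 and Ralgds (0.955). The leading r was 0.943 for Ireb2, with Foxd2os, Idh2 and Arhgap32, and lowest for Cp at 0.845, with Pfkfb3, Sfrp1 and Ccdc159. No gene appeared in the lists of more than 1 of the 10.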

How the data were processed

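RNA was sequenced from 9 MPC clones with a stranded mRNA kit. The deposited values are log2 values for 18049 genes, and the authors had scaled each library and added 4 before the log2. The submitters' processing notes name FastQC 0.11.9, STAR 2.7.10, RSEM 1.3.3 and build GRCm38. The scaling tool and annotation are not given in the sources used here. A further 6 columns, of MEF libraries from other studies, were not used.

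Normalized counts were obtained by undoing the log2 and subtracting 4. Whole reads were recovered from the step of the low values (100% of values under 1000 reads within 0.1 of a whole number). The floor of 3 reads was 3.79 to 6.56 normalized counts and covers counting error only. No pair of libraries agreed within sampling noise (smallest chi-square per degree of freedom 22.6). Columns were matched to the group, not to single samples, and clones are named by column. Names of mouse genes were found for 18033 of the identifiers. Gene positions are RefSeq spans (GRCm38.p6). No gene lengths were used, so an order of counts between genes, used only to pick names, is not an order of expression.

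Whe10 and Whe3 clones were compared with limma (lmFit and eBayes, trend included), after log2 of normalized counts plus 1, for genes with a mean of at least 1, with Benjamini-Hochberg adjustment over all genes tested. Relations were tested by exact permutation. The code of the limma comparison was tested on simulated reads. Alternatives were other scalings, pseudocounts, filters and fits, and leaving out clones. The genes and lists were chosen with earlier results of these data known. Named genes were the 10 iron genes, the genes of each other group with the most and fewest counts, and the 3 most alike genes of each of the 10, unless said otherwise. The result of 1 gene is not reported here. Software was Python 3.11.15, numpy 2.4.6, pandas 2.3.3, scipy 1.17.1, matplotlib 3.10.9, R 4.3.3 and limma 3.58.1.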

Additional observations from a re-analysis of the deposited data

Results flagged for a closer look

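A clone far from the other 8, by Dixon's ratio of its gap to the whole range (at the 95% critical value for 9 values), was found for 3 of 58 values tested, where chance gives about 2.9. The ratio of Tfrc to Slc40a1 counts was far higher in Whe3_12A, 1.87 against at most 0.583 elsewhere, with a gap of 0.776 of the range. Ireb2 was low in Whe10_8A, at 1725 normalized counts, with a gap of 0.540 of a narrow range. Glrx5, a glutaredoxin of mitochondrial iron-sulfur assembly, was low in the MET clone, at 639 normalized counts against a mean of 965 ± 137 (SD, n = 9), with a gap of 0.610 of the range.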

How the results depend on the processing

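No paired analysis was possible because the labels give the 9 clones 1 shared condition and no second group to pair with. The mean levels of the 10 genes moved by less than 1 SD under rescaling to the upper quartile or to the total and without the MET clone, Whe3_12A or both. Leaving out Whe3_12A, alone or with the MET clone, was chosen after seeing the data. Between Whe10 and Whe3, 29 genes were called, 17 without a trend in limma and 10 to 263 with a clone left out. The 263 came without Whe3_5A, 10 without Whe10_10A or Whe3_7A, 11 without Whe10_7A, 16 without Whe10_11A, 17 without Whe3_12A and 18 without Whe10_8A. The cause was not tested. None of the 10 genes was called under any of the 16 alternatives, and the adjusted p of Slc11a1 was 0.0917 to 0.384. The log2 difference of Fth1 (0.03) changed sign without Whe10_10A (-0.012) or Whe3_12A (-0.10), and that of Hmox1 (0.05) without Whe3_12A (-0.10) or Whe3_5A (-0.085). With each clone left out in turn, the difference ranged from -0.10 to 0.15 for Fth1 and from -0.10 to 0.26 for Hmox1.

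Correlations with few clones moved more. Slc11a1 with the macrophage score passed the threshold for r without the MET clone (0.937), while its rho lost it without the MET clone (0.881), without the 2 farthest clones (0.821), centred within sets (0.833), without Whe3_12A (0.857) and without both clones (0.821), all with fewer values. The r of Ftl1 with Fth1 turned to -0.0087 without the 2 farthest clones and without MET and Whe3_12A, the same pair. Without both, r turned to -0.470 for Hmox1 with Slc40a1, -0.036 for Hmox1 with Ftl1, -0.412 for Hmox1 with the macrophage score and 0.181 for Cp with the macrophage score. Without MET, r was -0.095 for Tfrc with Slc40a1 and 0.017 for Cp with the macrophage score. Without the 2 farthest clones it was -0.153 for Tfrc with Slc40a1, and centred within sets 0.367 for Cp with the macrophage score. Without Whe3_12A it was -0.151 for Hmox1 with the macrophage score and -0.132 for Tfrc with the proliferation score. For Tfrc with Slc40a1, r rose to 0.700 without Whe3_12A (exact permutation, adjusted p = 0.234). There rho was 0.738 (exact permutation, adjusted p = 0.206), and r was 0.384 without both clones. Depth limits Cp most, with 40 reads in its lowest library.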
